A study of Mus musculus with 9 samples.

Results

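Kinesins are motor proteins that use ATP to walk along microtubules or to take microtubule ends apart. A subset builds the mitotic spindle, aligns chromosomes and completes cytokinesis. The genes of that subset are transcribed late in the cell cycle and are kept low in resting cells. Other kinesins carry vesicles and organelles in resting cells as well, and a few serve the primary cilium and Hedgehog signaling. Most hepatocytes of the adult liver are quiescent, and loss of liver mass brings them back into the cell cycle.

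The kinesin family was taken as the protein-coding genes whose name starts with Kif followed by a digit or the letter c, which gave 41 genes among 43346 genes in the deposited table, 22032 of them protein coding. From their known roles, 13 were listed as mitotic, 14 as cargo transport, 6 as cilium and Hedgehog genes and 8 as other kinesins. The lists were drawn up with earlier results of these data known, so counts over a list are descriptions and not tests. The 8 include *Kif2a* and *Kif2b*, relatives of *Kif2c* that could also be counted as mitotic. Counts over the mitotic list therefore leave them out. The expression filter kept 15024 genes, among them 34 kinesins, namely 13 mitotic, 12 transport, 3 cilium and Hedgehog and 6 other. The 7 kinesins that were not tested (*Kif1a*, *Kif5c*, *Kif17*, *Kif19a*, *Kif27*, *Kif2b* and *Kif6*) had at most 13 counts in any library. *Cenpe*, a kinesin of the kinetochore that the naming rule misses, was placed among the mitotic partners described with them.

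Whole-liver RNA-Seq covered 9 libraries of male WT C57/BL6 mice aged 12 weeks, in 3 groups of 3. All mice underwent 70% hepatectomy. The baseline group is the liver resected at surgery (0 h) from vehicle-treated mice, and the other groups are liver remnants 40 h after surgery from mice given vehicle (normal saline) or NSC-87877 (NSC), a small molecule inhibitor of the phosphatase SHP2 that also acts on SHP1. NSC was given at 7.5 mg/kg every 12 h, with the first dose 12 h before surgery by the sample labels. The study's methods place that dose 1 day before surgery. Both agents were given before surgery, so the baseline mice had received vehicle. Liver resected from mice on NSC was not analysed here, so NSC remnants differ from baseline in surgery, time and drug together. Whether a resection specimen and a remnant came from the same mouse is not stated in the sources used here. The p-values therefore measure the spread between these samples.

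Libraries held 23997363 to 42887589 counts assigned to genes, and 3 counts, the floor used for detection, equal 0.0751 to 0.117 CPM (counts scaled to library size). Intervals and floors cover counting error only. Hepatocyte markers were high throughout, with 90106.5 to 127158 CPM summed over *Alb*, *Apoa1*, *Ttr*, *Serpina1a*, *Tat* and *Cps1*. Within this list *Tat*, a tyrosine-degrading enzyme, fell with vehicle and NSC (log2 fold changes -1.25 and -1.93), and *Cps1*, an enzyme of the urea cycle, fell with NSC (-1.25), while the other 4 passed in neither comparison with baseline. One library stood apart, NSC replicate 1. Its summed mitotic kinesin level was 20.9 FPKM (fragments scaled to gene length and library size), against 133.5 and 108.8 FPKM in the other NSC remnants and 35.1 to 55.5 FPKM in vehicle remnants. The same library had the highest summed macrophage (327 CPM) and endothelial (199.8 CPM) markers of all 9 libraries. Counts and medians of the lists that rest on the NSC group are therefore also given without it.

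The first question was how the family responds to hepatectomy with vehicle alone. At 40 h, 13 of 13 mitotic kinesins were higher than at baseline, with log2 fold changes from 3.31 to 7.45 and a median of 5.43, while the median over all genes tested was 0.01. Transport kinesins had a median log2 fold change of -0.31, and 3 of 12 passed the test, *Kif5b* upward and *Kif1b* and *Kifc2* downward. A gene passed the test at an adjusted p under 0.05 (edgeR's quasi-likelihood test, Benjamini-Hochberg adjustment over all 15024 genes) and was called when its log2 fold change also exceeded 1.5 in either direction. With vehicle, 13 kinesins were called higher and 1 lower. Of all genes, 5.03% were called higher and 2.19% lower, and by the adjusted p alone 12.7% were higher and 11% lower. By the adjusted p alone 16 kinesins rose and 2 fell.

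With NSC, the same 13 mitotic kinesins were called higher than baseline, with log2 fold changes from 3.63 to 7.82 and a median of 6.23. *Kif24*, a restraint on cilium assembly, was also called higher, and *Kifc2* was called lower, so that 14 kinesins were called higher and 1 lower. Without NSC replicate 2 the log2 fold change of *Kif24* was 1.33, under the fold threshold. Of all genes, 5.38% were called higher and 2.75% lower. By the adjusted p alone 17 kinesins rose and 8 fell, beside 18.2% and 16.5% of all genes. Without NSC replicate 1, 14 of 35 kinesins were called higher and 2 lower, and the share of all genes called in that fit was not counted. By the adjusted p alone 15 kinesins then rose and 7 fell, beside 17.8% and 15.9% of all genes. The medians of that fit were 6.65 for the mitotic and -0.71 for the transport list. In both comparisons every mitotic kinesin had its 3 remnant libraries above its 3 baseline libraries. Such a complete separation upward held for 24.2% of all genes with vehicle and 24% with NSC, and downward for 22% and 23.1%. The comparisons share the baseline libraries, so they are not independent of each other.

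**Figure D1:**
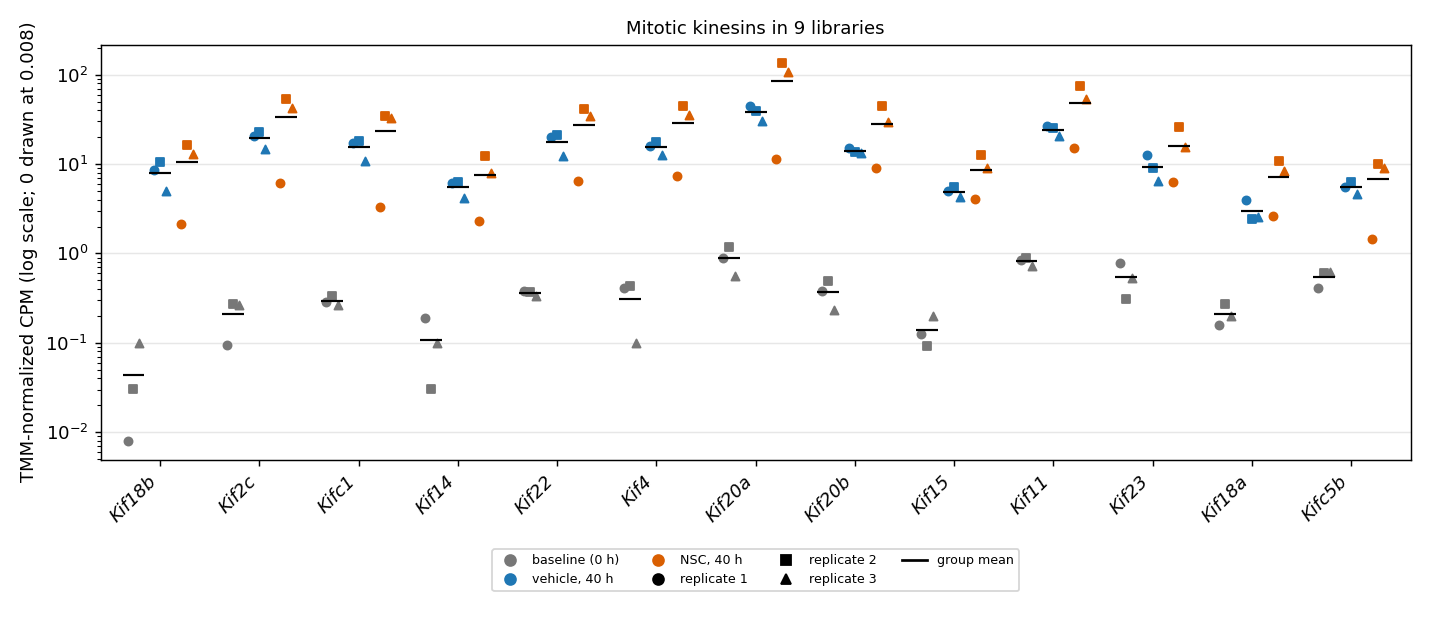
TMM-normalized CPM (log scale) of the 13 mitotic kinesins in the 9 libraries, ordered by fold change with vehicle. Points are libraries, with a symbol for each replicate number, and bars are group means. Every remnant lies above every baseline liver for each gene, and NSC replicate 1 (orange circle) lies below the other NSC remnants. Levels are to be compared within a gene, since CPM is not corrected for length.

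All 4 motors of spindle assembly rose after surgery. *Kif11*, the plus-end motor that pushes spindle poles apart, was at 0.853, 0.886 and 0.726 CPM at baseline, at 26.5, 25.4 and 20.6 CPM with vehicle and at 15.1, 74.5 and 54.2 CPM with NSC. It rose 29.3-fold with vehicle (log2 fold change 4.87 ± 0.59, adjusted p = 0.00105) and 57.9-fold with NSC (log2 fold change 5.86 ± 0.61, adjusted p = 0.000352). All baseline livers were under 1 CPM, and NSC replicate 1 lay under the vehicle remnants whereas replicates 2 and 3 lay above them. *Kif15*, a motor that helps to keep the spindle bipolar, was at 0.126, 0.0916 and 0.198 CPM at baseline, at 4.96, 5.49 and 4.24 CPM with vehicle and at 4.08, 12.8 and 9.16 CPM with NSC. The rise of *Kif15* was 34.7-fold with vehicle (log2 fold change 5.12 ± 0.49, adjusted p = 6.44e-05) and 61.2-fold with NSC (log2 fold change 5.94 ± 0.49, adjusted p = 1.82e-05). Here too the remnants were separated from baseline, where the libraries held 4, 3 and 6 counts. *Kifc1*, a minus-end motor that focuses spindle poles, was at 0.284, 0.336 and 0.264 CPM at baseline, at 17.2, 18.2 and 10.9 CPM with vehicle and at 3.27, 34.6 and 32.5 CPM with NSC. *Kifc1* thus rose 51.7-fold with vehicle (log2 fold change 5.69 ± 0.98, adjusted p = 0.00618) and 78.2-fold with NSC (log2 fold change 6.29 ± 0.99, adjusted p = 0.00292). *Kifc5b*, a close relative of *Kifc1*, was at 0.411, 0.611 and 0.627 CPM at baseline, at 5.51, 6.32 and 4.65 CPM with vehicle and at 1.44, 10.2 and 9.04 CPM with NSC. Its rise was 9.95-fold with vehicle (log2 fold change 3.31 ± 0.64, adjusted p = 0.00578) and 12.4-fold with NSC (log2 fold change 3.63 ± 0.65, adjusted p = 0.00264). Values of *Kifc1* and *Kifc5b* are uncertain, because 47.6% of the 50-base windows of the longest *Kifc1* transcript and 42.1% of those of *Kifc5b* also occur in another gene, mainly in each other, and how the counting treated such reads is not given in the sources used here.

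All 4 motors that act on chromosomes and kinetochores rose after surgery. *Kif22*, a chromosome-arm motor, was at 0.379, 0.366 and 0.330 CPM at baseline, at 20.1, 21.1 and 12.4 CPM with vehicle and at 6.42, 41.9 and 34.4 CPM with NSC. It rose 49.3-fold with vehicle (log2 fold change 5.62 ± 0.79, adjusted p = 0.00236) and 75.9-fold with NSC (log2 fold change 6.25 ± 0.80, adjusted p = 0.00105). *Kif4*, a chromosome motor that also organizes the central spindle, was at 0.411, 0.428 and 0.0990 CPM at baseline, at 16.1, 17.9 and 12.7 CPM with vehicle and at 7.38, 44.5 and 35.3 CPM with NSC. The rise of *Kif4* was 48.8-fold with vehicle (log2 fold change 5.61 ± 0.80, adjusted p = 0.00259) and 90.9-fold with NSC (log2 fold change 6.51 ± 0.82, adjusted p = 0.000997). Neither gene had a baseline value above 0.5 CPM. *Kif2c*, which depolymerizes microtubules at kinetochores, was at 0.0948, 0.275 and 0.264 CPM at baseline, at 20.8, 22.9 and 14.9 CPM with vehicle and at 6.12, 53.9 and 41.95 CPM with NSC. *Kif2c* thus rose 90.99-fold with vehicle (log2 fold change 6.51 ± 0.97, adjusted p = 0.00345) and 158-fold with NSC (log2 fold change 7.30 ± 0.99, adjusted p = 0.00152). *Kif18a*, which limits chromosome oscillation at the metaphase plate, was at 0.158, 0.275 and 0.198 CPM at baseline, at 4.004, 2.44 and 2.55 CPM with vehicle and at 2.64, 10.7 and 8.30 CPM with NSC. Its rise was 14-fold with vehicle (log2 fold change 3.81 ± 0.55, adjusted p = 0.000846) and 33.6-fold with NSC (log2 fold change 5.07 ± 0.56, adjusted p = 0.000121). *Kif18a* was the gene of this group with the smallest rise after vehicle, and the remnant libraries of vehicle and NSC replicate 1 were close to each other for it.

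*Kif18b*, which shortens astral microtubules, gave 0, 1 and 3 counts in the baseline livers, that is at or below the floor of 3 counts in each. The remnants held 344, 406 and 135 counts with vehicle and 72, 483 and 329 with NSC. The fitted log2 fold changes of 7.45 ± 1.09 (adjusted p = 0.00236) and 7.82 ± 1.09 (adjusted p = 0.00123) depend on the prior count for a gene this low. From summed counts, scaled to library size, the ratio to baseline was 198 with vehicle (exact 95% interval from 77.2 to 730) and 237 with NSC (from 92.2 to 872). Its bounds against the floor were log2 fold changes of at least 6.46 and 6.72. Both lie above the medians of the mitotic list (5.43 and 6.23), so setting the gene at its bound cannot move them.

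Cytokinesis motors included the mitotic kinesin with the highest level in most remnants. *Kif20a*, which brings the chromosomal passenger complex to the central spindle, was at 0.885, 1.19 and 0.561 CPM at baseline, at 44.5, 39.4 and 30.4 CPM with vehicle and at 11.5, 134 and 108 CPM with NSC. It rose 42.99-fold with vehicle (log2 fold change 5.43 ± 0.96, adjusted p = 0.0073) and 94.9-fold with NSC (log2 fold change 6.57 ± 0.99, adjusted p = 0.00267). Per length, it had the highest FPKM of the mitotic kinesins in 5 of the 6 remnants, from 7.76 to 36.0 FPKM, and *Kif11* ranked first in NSC replicate 1 at 3.46 FPKM. *Kif23*, the motor subunit of centralspindlin, was at 0.790, 0.305 and 0.528 CPM at baseline, at 12.5, 9.07 and 6.42 CPM with vehicle and at 6.33, 25.7 and 15.6 CPM with NSC. The rise of *Kif23* was 17.2-fold with vehicle (log2 fold change 4.10 ± 0.58, adjusted p = 0.00146) and 29.2-fold with NSC (log2 fold change 4.87 ± 0.59, adjusted p = 0.000462). The gene was among the least raised of the list. *Kif14*, which recruits citron kinase to the midbody, was at 0.190, 0.0305 and 0.0990 CPM at baseline, at 6.21, 6.32 and 4.17 CPM with vehicle and at 2.31, 12.4 and 7.91 CPM with NSC. *Kif14* thus rose 50.9-fold with vehicle (log2 fold change 5.67 ± 0.74, adjusted p = 0.00074) and 68.7-fold with NSC (log2 fold change 6.10 ± 0.74, adjusted p = 0.000329). *Kif20b*, a motor of late cytokinesis, was at 0.379, 0.489 and 0.231 CPM at baseline, at 15.2, 13.6 and 13.4 CPM with vehicle and at 9.15, 45.2 and 29.5 CPM with NSC. Its rise was 37.9-fold with vehicle (log2 fold change 5.24 ± 0.63, adjusted p = 0.000949) and 75.1-fold with NSC (log2 fold change 6.23 ± 0.65, adjusted p = 0.000313). Baseline values of *Kif14* were 6, 1 and 3 counts, so its fold is imprecise. *Kif20a* and *Kif4* share 2315 and 832 bases of their span with *Cdc23* and *Pdzd11* on the opposite strand, and the strand setting of the counting is not given in the sources used here.

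All 13 mitotic kinesins passed the expression filter, 8 of them with under 10 counts in at least 1 baseline liver, so the remnants carried those through the filter. A filter at 10 counts in every library leaves 5 of them (*Kif11*, *Kif20a*, *Kif22*, *Kif23* and *Kifc5b*), and these 5 were called higher in both comparisons.

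Promoter letters of the mitotic list were examined because these genes moved together. The cell cycle homology region (CHR), written TTTGAA or TTCGAA, is bound by the complexes that silence and later activate late cell cycle genes, and it often lies downstream of CCAAT boxes. The RefSeq table (GRCm38.p6) holds windows of 300 bases, 250 before the annotated start and 50 from it, for 33 of 41 kinesins and 12 of 13 mitotic ones. No window was given for *Kif20a*. Both strands were searched, and the palindrome TTCGAA was counted once. CHR letters stood in 11 of 12 mitotic windows (91.7%), in 4 of 21 other kinesins (19.0%), among them 1 of 9 transport kinesins, and in 21.7% of 27025 genes of the table. From 100 bases before the start onward the counts were 9 of 12 mitotic kinesins (75.0%), 4 of 21 other kinesins (19.0%) and 9.87% of all genes. Those 4 were *Kif1a*, a transport kinesin, *Kif24*, *Kif26b* and *Kif27*. CCAAT letters stood in 8 of 12 mitotic kinesins (66.7%) and 41.1% of all genes, and CHR and CCAAT letters together in 8 of 12 (66.7%), 3 of 21 other kinesins (14.3%), 0 of 9 transport kinesins and 8.61% of all genes. The windows of *Kifc1* and *Kifc5b* hold nearly the same sequence, so the 12 mitotic windows are not independent of each other. A match of letters is a description and not a measured binding site.

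The 8 windows shown here are those in which CHR letters lie within 20 bases of the start, so their shared placement follows from this choice. Among the windows left out, the first CHR base lay at position -228 in *Kif14*, -103 in *Kif2c* and 30 in *Kifc5b*. Each runs 5′ to 3′ in the direction of the gene over 125 bases, 100 before the RefSeq start and 25 from it, with CHR and CCAAT letters of either strand in capitals. They cover chr19:37376282-37376406 on the plus strand (*Kif11*), chr9:122950981-122951105 on the plus strand (*Kif15*), chr11:102925100-102925224 on the minus strand (*Kif18b*), chr7:127042396-127042520 on the minus strand (*Kif22*), chr9:61946775-61946899 on the minus strand (*Kif23*), chrX:100625965-100626089 on the plus strand (*Kif4*), chr17:33890609-33890733 on the minus strand (*Kifc1*) and chr19:34922258-34922382 on the plus strand (*Kif20b*).
Kif11: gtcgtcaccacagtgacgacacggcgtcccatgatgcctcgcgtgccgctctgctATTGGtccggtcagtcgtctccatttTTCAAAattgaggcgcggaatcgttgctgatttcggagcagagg
Kif15: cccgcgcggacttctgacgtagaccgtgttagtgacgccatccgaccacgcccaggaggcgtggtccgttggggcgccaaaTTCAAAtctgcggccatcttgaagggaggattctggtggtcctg
Kif18b: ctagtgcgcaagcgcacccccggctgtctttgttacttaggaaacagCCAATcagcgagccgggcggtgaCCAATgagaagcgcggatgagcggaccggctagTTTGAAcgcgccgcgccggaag
Kif22: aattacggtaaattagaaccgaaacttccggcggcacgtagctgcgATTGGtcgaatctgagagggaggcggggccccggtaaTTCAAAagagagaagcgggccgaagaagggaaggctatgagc
Kif23: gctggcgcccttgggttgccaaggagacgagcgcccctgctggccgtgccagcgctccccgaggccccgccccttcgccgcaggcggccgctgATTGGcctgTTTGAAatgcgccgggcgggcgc
Kif4: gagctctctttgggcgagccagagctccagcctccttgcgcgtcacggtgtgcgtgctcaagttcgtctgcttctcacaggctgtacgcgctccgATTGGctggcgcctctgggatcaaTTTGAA
Kifc1: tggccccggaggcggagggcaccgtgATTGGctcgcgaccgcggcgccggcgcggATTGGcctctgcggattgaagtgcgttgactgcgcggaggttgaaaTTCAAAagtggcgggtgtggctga
Kif20b: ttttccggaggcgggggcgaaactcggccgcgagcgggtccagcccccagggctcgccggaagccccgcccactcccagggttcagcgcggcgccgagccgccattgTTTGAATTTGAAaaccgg

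The capitals TTTGAA and TTCAAA are the same CHR element read on either strand, and CCAAT and ATTGG are the same CCAAT box. The first CHR base lay 19 bases before the start in *Kif11* and *Kif15*, 17 before it in *Kif22*, and at bases 2, 3, 4 and 20 from the start in *Kifc1*, *Kif23*, *Kif18b* and *Kif4*. *Kif20b* has a pair of adjoining copies at bases 8 and 14 and no CCAAT letters in its window. In *Kif11*, *Kif18b*, *Kif22*, *Kif23*, *Kif4* and *Kifc1* a CCAAT box stands upstream of the CHR. The window of *Kif18a* holds neither set of letters. Its fold changes were 14.0 with vehicle and 33.6 with NSC, and a link between the letters and expression was not tested. The RefSeq starts of *Kif2c*, *Kif14*, *Kif4* and *Kifc1* lie 3867, 1505, 328 and 28 bases inside the deposited gene span, and that of *Kif11* lies just before it. For these genes the counts of CHR letters refer to the RefSeq start and not to the start of the deposited span.

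**Figure D2:**
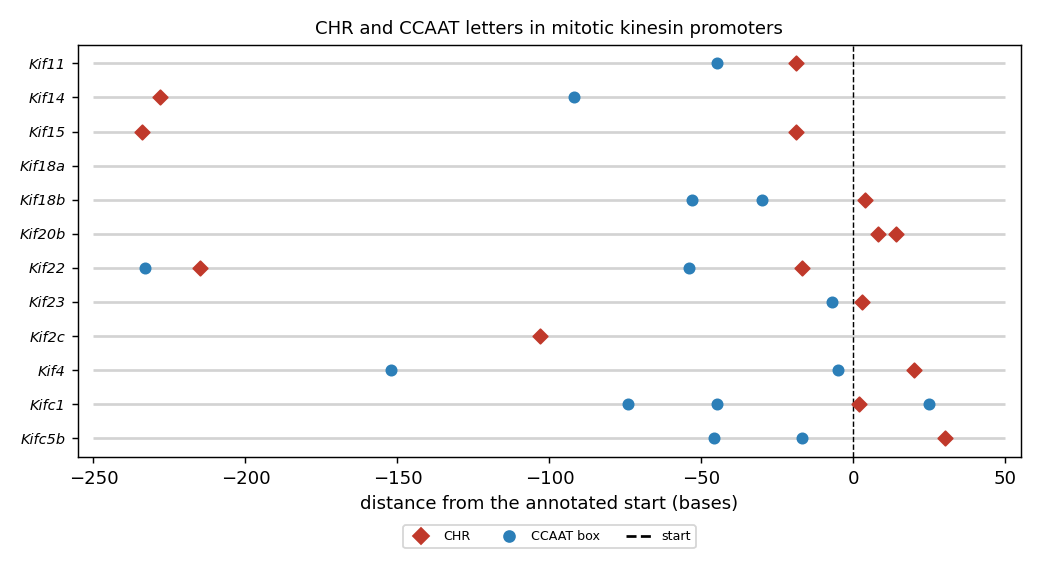
Position of CHR letters (red diamonds) and CCAAT letters (blue circles) in the RefSeq windows of the 12 mitotic kinesins that have one, as distance in bases of the first letter from the annotated start (dashed line). CHR letters gather near the start in 9 of 12 genes, with CCAAT letters mostly upstream, and *Kif18a* has none.

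The remaining kinesins changed little by comparison, and the transport list held both directions. *Kif1c*, a vesicle motor, had the highest FPKM of this list in all 9 libraries, at 29.2, 25.6 and 33.1 FPKM at baseline, 27.2, 23.3 and 19.5 FPKM with vehicle and 25.9, 15.5 and 19.1 FPKM with NSC. It fell with NSC (log2 fold change -0.69 ± 0.19, adjusted p = 0.0149), and with vehicle the value was -0.34 ± 0.19 (adjusted p = 0.213). The fall did not pass with library size as the only scaling (adjusted p = 0.0584), with a GC correction (0.128), without baseline replicate 3 (0.0708) or without NSC replicate 2 (0.0706). *Kif1b*, which carries mitochondria and synaptic vesicle precursors, was at 11.9, 10.03 and 10.6 FPKM at baseline, 5.99, 5.30 and 4.61 FPKM with vehicle and 8.49, 5.30 and 4.93 FPKM with NSC. It fell in both (with vehicle log2 fold change -1.05 ± 0.19, adjusted p = 0.00283; with NSC log2 fold change -0.94 ± 0.19, adjusted p = 0.00326), and no remnant reached a baseline value.

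*Kif5b*, the ubiquitous heavy chain of conventional kinesin, moved the other way, from 5.47, 4.89 and 4.52 FPKM at baseline to 8.32, 6.96 and 8.99 FPKM with vehicle and 12.02, 10.2 and 7.48 FPKM with NSC. It rose 1.61-fold with vehicle (log2 fold change 0.69 ± 0.17, adjusted p = 0.0129) and 1.81-fold with NSC (log2 fold change 0.86 ± 0.17, adjusted p = 0.00294). With vehicle the rise did not pass without baseline replicate 3 (adjusted p = 0.061) or without vehicle replicate 3 (0.0524). At baseline *Kif1b* stood above *Kif5b* in each liver, and in each remnant *Kif5b* stood above *Kif1b*, per length. The neuronal heavy chains of the same motor were low, *Kif5a* with 0.344 ± 0.0311 FPKM at baseline (SD) and *Kif5c* with 1 to 5 counts in every library.

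Among the 34 tested kinesins the largest fall was that of *Kifc2*, a minus-end motor known from neurons. Its level was 3.75, 3.11 and 4.16 FPKM at baseline, 0.941, 1.09 and 0.899 FPKM with vehicle and 0.821, 0.718 and 0.901 FPKM with NSC. It fell with vehicle (log2 fold change -1.91 ± 0.21, adjusted p = 0.000143) and with NSC (log2 fold change -2.32 ± 0.22, adjusted p = 4.18e-05), and its groups did not overlap in either comparison. *Kif13b*, which transports phosphoinositides and membrane receptors, was at 6.998, 5.64 and 7.40 FPKM, 6.31, 5.64 and 4.27 FPKM and 5.25, 3.998 and 3.22 FPKM in the same order. It fell with NSC (log2 fold change -0.83 ± 0.20, adjusted p = 0.00677) and had a value of -0.32 ± 0.19 with vehicle (adjusted p = 0.26). Other transport motors that fell with NSC were *Kif13a* (log2 fold change -0.49 ± 0.16), *Kif3c* (-1.32 ± 0.38) and *Kif5a* (-1.08 ± 0.31), so that 7 of 12 fell and 1 rose. Of all genes, 16.5% fell and 18.2% rose with NSC. *Kif13a* did not pass under 8 of 18 alternatives, *Kif5a* under 3 and *Kif3c* under 2. With a GC correction, added after the data were seen, 4 of 12 fell (13.8% of all genes did), since *Kif1c*, *Kif13a* and *Kif5a* no longer passed. The number that fell was also 4 without baseline replicate 3 or without NSC replicate 2, in both cases *Kif13b*, *Kif1b*, *Kif5a* and *Kifc2*. It was 7 without NSC replicate 1. In these 3 fits 11.4%, 12% and 15.9% of all genes fell. *Kif3a*, *Kif3b*, *Kif16b* and *Kifc3*, which include the motor subunits of the ciliary transport kinesin, passed in neither comparison, with log2 fold changes between -0.30 and 0.31.

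Among cilium and Hedgehog genes, *Kif24*, a centriolar microtubule depolymerase that restrains cilium assembly, was at 0.727, 1.04 and 1.19 CPM at baseline, 1.95, 2.98 and 1.88 CPM with vehicle and 1.62, 4.55 and 3.37 CPM with NSC. It rose 3.22-fold with NSC (log2 fold change 1.68 ± 0.39, adjusted p = 0.00629) and 2.31-fold with vehicle (log2 fold change 1.21 ± 0.39, adjusted p = 0.0422). The vehicle result lost its adjusted p when any baseline or vehicle library was left out (0.0656 to 0.144) and without NSC replicate 3 (0.0515). *Kif7*, a Hedgehog regulator of the cilium tip, and *Kif9*, a kinesin of motile cilia, passed in no comparison, and *Kif17*, which gave 0 counts in all baseline livers, had 3, 7 and 2 counts with vehicle and 4, 0 and 0 with NSC.

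Of the other kinesins, *Kif26b*, an atypical kinesin of kidney development, rose with vehicle (log2 fold change 1.16 ± 0.30, adjusted p = 0.0152) and NSC (log2 fold change 0.99 ± 0.30, adjusted p = 0.0236) from 0.0707 ± 0.0241 FPKM at baseline to 0.159 ± 0.00658 and 0.155 ± 0.0337 FPKM (SD). The rise with vehicle did not pass without baseline replicate 1 or 2 (adjusted p = 0.067 and 0.0524), and that with NSC did not pass under 4 of 18 alternatives (adjusted p from 0.0528 to 0.0897), which left out baseline replicate 1, baseline replicate 2 or NSC replicate 1 or used only the 2 groups compared. *Kif2a*, a microtubule depolymerase like *Kif2c*, did not pass with vehicle (log2 fold change 0.22 ± 0.19, adjusted p = 0.439). It rose with NSC (log2 fold change 0.54 ± 0.19, adjusted p = 0.0439), from 0.884 ± 0.0999 to 1.41 ± 0.191 FPKM (SD). The rise of *Kif2a* with NSC did not pass under 12 of 18 alternatives (adjusted p from 0.0537 to 0.991). Among them were any baseline library left out, NSC replicate 1 or 2 left out, and the GC correction, with which the log2 fold change was 0.0032. *Kif12*, a kinesin of renal and biliary epithelium, was at 0.821, 0.886 and 0.924 CPM at baseline, 0.876, 0.777 and 0.701 CPM with vehicle and 0.300, 0.204 and 0.626 CPM with NSC. It passed the test downward with NSC (log2 fold change -1.24 ± 0.43, adjusted p = 0.0423), on 6 to 16 counts in the NSC libraries. That fall did not pass under most alternatives, with adjusted p from 0.0503 to 0.143 where it was lost. *Kif21a*, which restrains microtubule growth at the cell cortex, was the most abundant of these genes at 9.13 ± 0.973, 9.07 ± 1.09 and 8.47 ± 2.16 FPKM (SD) and passed in no comparison. *Kif2b* and *Kif6* had at most 1 count in any library.

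**Figure D3:**
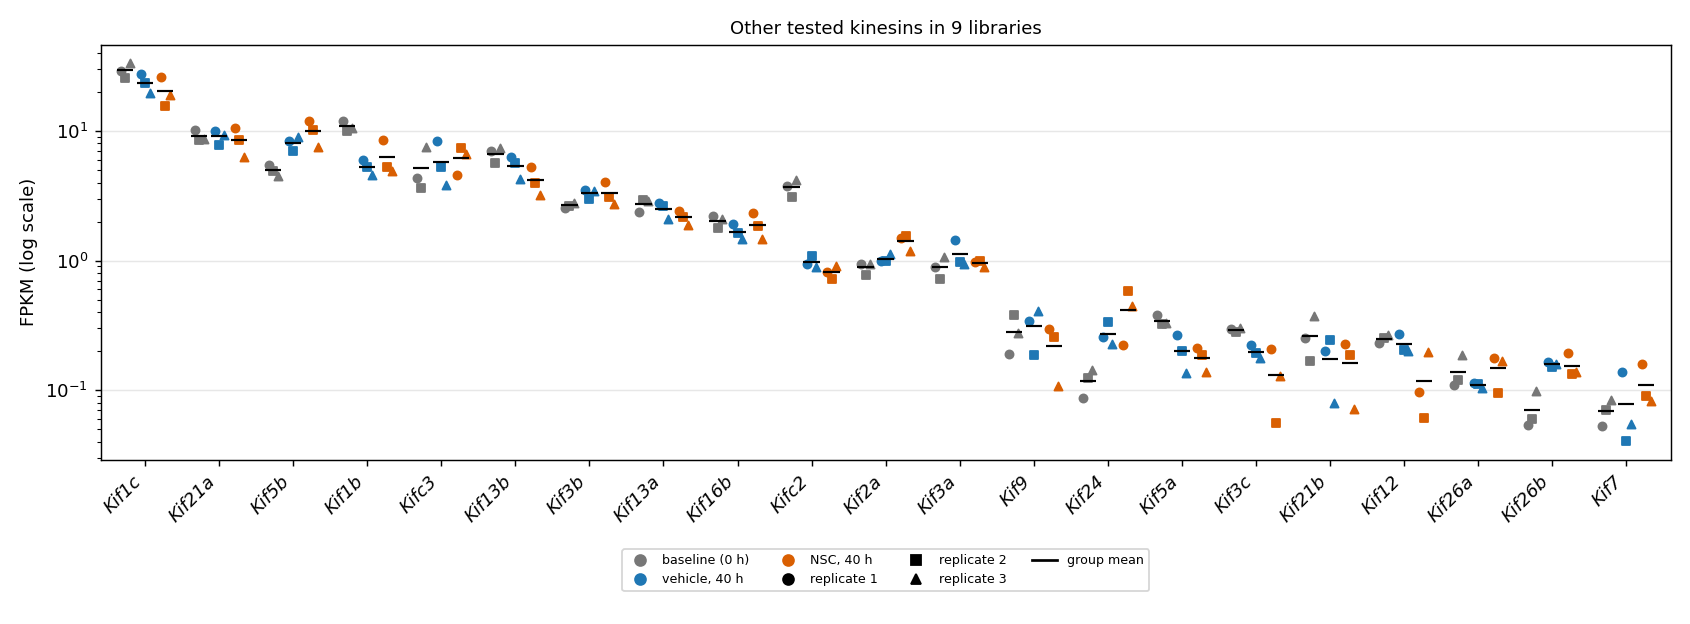
FPKM (log scale) of the 21 tested kinesins outside the mitotic list in the 9 libraries, ordered by mean level. Points are libraries and bars are group means. *Kif1c* lies highest, *Kif1b* and *Kifc2* drop from baseline to the remnants and *Kif5b* rises. Of the other genes, some overlap between groups and some do not.

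Summed per length, the family changed in composition. Mitotic kinesins added to 1.11 to 1.33 FPKM at baseline, 35.1 to 55.5 FPKM with vehicle and 20.9, 133.5 and 108.8 FPKM with NSC. Transport kinesins added to 61.6 to 76.7, 50.4 to 67.3 and 49.6 to 67.2 FPKM. The mitotic share of all kinesin FPKM was thus 1.25% to 1.82% at baseline, 36.0% to 41.4% with vehicle and 20.6%, 67.9% and 65.1% with NSC. Transport kinesins exceeded mitotic ones in 7 of 9 libraries, all but NSC replicates 2 and 3. In bulk liver, more cells that express a gene and more of its RNA per cell cannot be told apart.

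**Figure D4:**
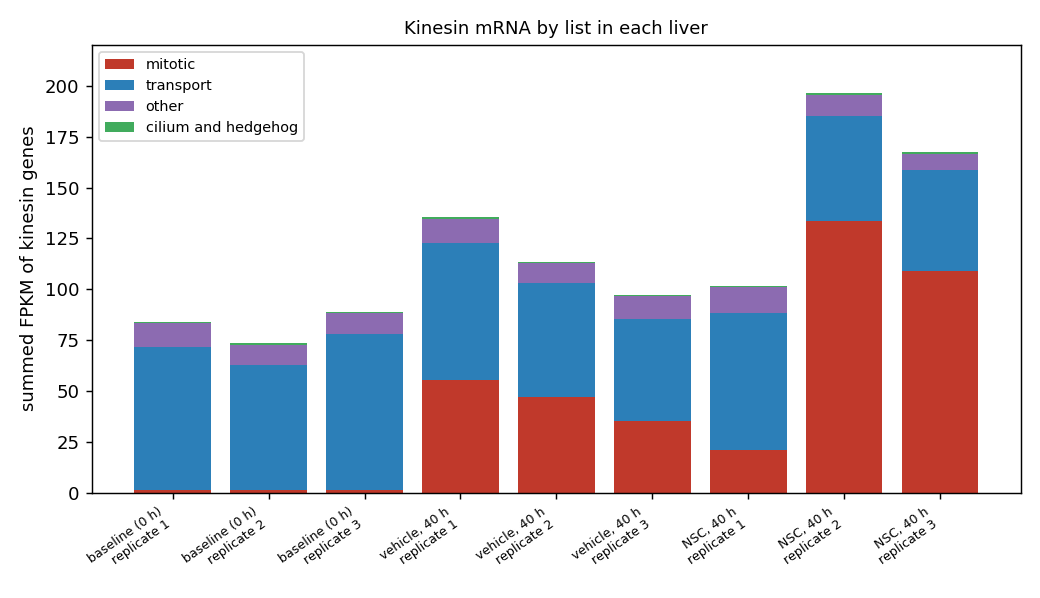
Summed FPKM of kinesin genes in each of the 9 libraries, stacked by list from 0. The mitotic part (red) grows from 1.11 to 1.33 FPKM at baseline to 20.9 to 133.5 FPKM in the remnants, and the transport part (blue) stays between 49.6 and 76.7 FPKM.

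The last question was whether NSC changed the family beyond vehicle at 40 h. Over all 9 libraries, 0 of 34 kinesins passed the adjusted p in edgeR's quasi-likelihood test, and 0 passed with DESeq2 or edgeR's exact test. Of all genes, 0.02% were called and 0.0399% passed the adjusted p alone in the quasi-likelihood test, in either direction, and 4.44% passed with DESeq2 and 2.64% with the exact test. Log2 fold changes were above 0 for 13 of 13 mitotic kinesins, from 0.32 to 1.26 with a median of 0.79, and below 0 for 9 of 12 transport kinesins, with a median of -0.32. The median of all genes was 0.02. At an unadjusted p under 0.05 there were 4 kinesins, beside 19.5% of all genes, and 6 with each of the other tools. Those 4 were *Kif18a* (1.26 ± 0.43, adjusted p = 0.155), *Kif15* (0.82 ± 0.35, adjusted p = 0.224), *Kif13b* (-0.51 ± 0.19, adjusted p = 0.188) and *Kif12* (-1.08 ± 0.43, adjusted p = 0.202). No kinesin had NSC libraries all above the vehicle libraries (10.3% of all genes had), and 3 had them all below (12.2% of all genes), *Kifc2*, *Kif3a* and *Kif12*.

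The NSC libraries disagreed with each other for the mitotic list. In NSC replicates 2 and 3, 13 of 13 mitotic kinesins lay above every vehicle remnant. In NSC replicate 1, 12 of 13 lay below every vehicle remnant, the exception being *Kif18a*. For transport kinesins, 7 and 11 of 12 lay below every vehicle remnant in replicates 2 and 3, against 2 of 12 in replicate 1. The share of all genes in these positions was not counted, so the counts describe these lists only. The proliferation markers followed the same order, with *Mki67* at 61.2, 239 and 160.1 CPM in NSC replicates 1, 2 and 3 and 87.5 to 121 CPM with vehicle.

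Without NSC replicate 1, 9 of 35 kinesins passed the adjusted p, all of them mitotic and all higher with NSC, beside 3.73% of 15390 genes higher and 2.73% lower. The largest differences were those of *Kif18a* (log2 fold change 1.66, adjusted p = 0.00461) and *Kif20a* (1.66, adjusted p = 0.00109), the 2 that also exceeded the fold threshold. *Kif11* (1.41, adjusted p = 0.000682), *Kif20b* (1.40, adjusted p = 0.00206), *Kif4* (1.35, adjusted p = 0.00924) and *Kif2c* (1.29, adjusted p = 0.00519) followed, and then *Kif15* (1.16, adjusted p = 0.0152), *Kifc1* (1.11, adjusted p = 0.00765) and *Kif22* (1.09, adjusted p = 0.00977). *Kif23*, *Kif14*, *Kif18b* and *Kifc5b* did not pass. The median over the mitotic list was 1.16 without NSC replicate 1, 0.29 without replicate 2 and 0.73 without replicate 3. Because replicate 1 has the lowest mitotic kinesin levels of its group, leaving it out raises the difference by construction. The part of its high macrophage and endothelial markers in this result was not tested.

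**Figure D5:**
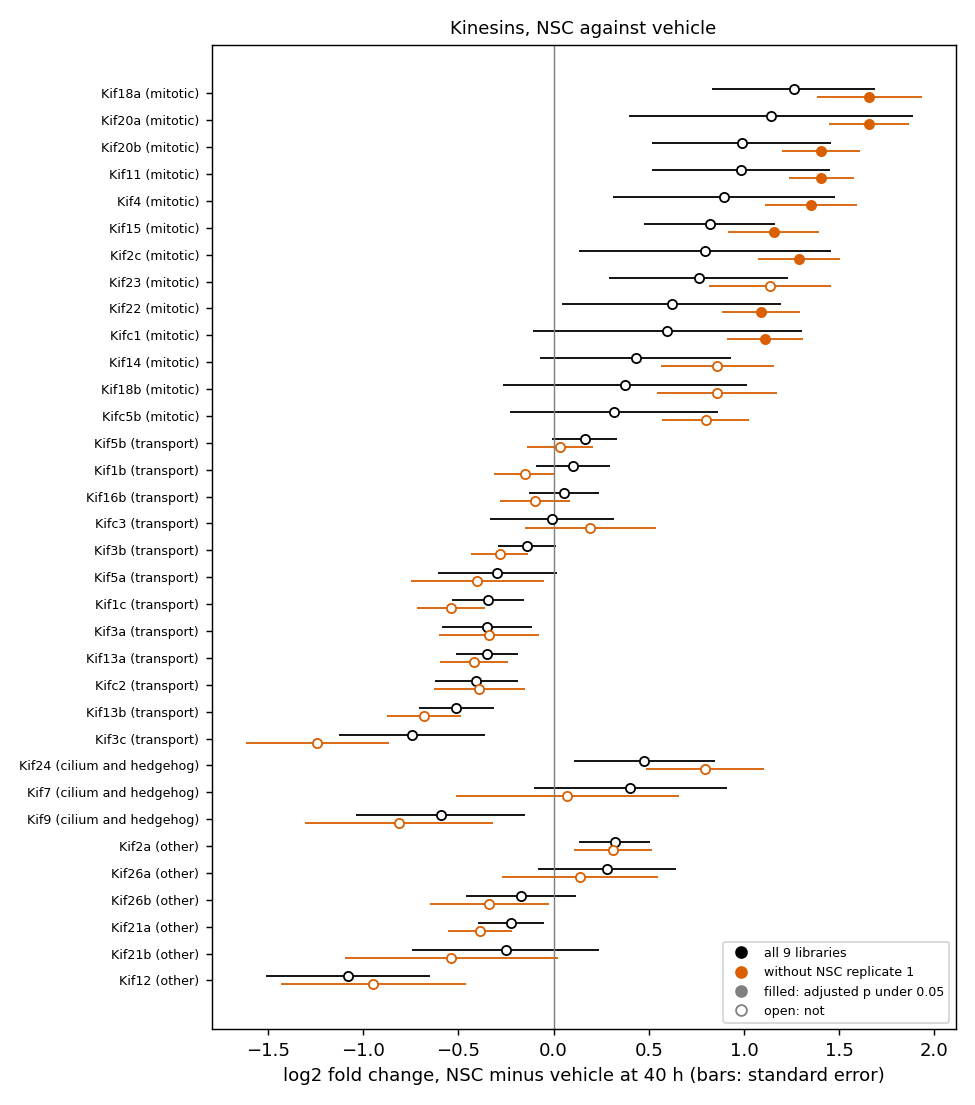
Log2 fold change of NSC minus vehicle at 40 h for the 34 tested kinesins, with bars of 1 standard error, over all 9 libraries (black) and without NSC replicate 1 (orange). Filled points passed an adjusted p under 0.05. No black point is filled, and 9 orange points are, all of mitotic kinesins between 1.09 and 1.66.

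Proteins that work with these motors were read from lists of partners. The 14 mitotic partners, which include the kinetochore kinesin *Cenpe*, the central spindle bundler *Prc1*, the centralspindlin subunit *Racgap1* and the passenger complex kinase *Aurkb*, were called higher in 14 of 14 cases with vehicle and with NSC, with medians of 6.48 and 7.35. *Prc1* was at 0.158, 0.336 and 0.165 CPM at baseline, 49.98, 45.4 and 38.3 CPM with vehicle and 16.7, 142 and 105 CPM with NSC. Between NSC and vehicle 0 of 14 passed the adjusted p or the unadjusted p under 0.05 in edgeR's quasi-likelihood test, and their median was 0.92. Without NSC replicate 1, 13 of 14 passed the adjusted p, all higher with NSC, beside 3.73% of all genes higher, with a median of 1.40. NSC replicate 1 was the lowest NSC remnant for each of these partners. Among 15 tested partners of transport (kinesin light chains, adaptors, dynein and dynactin subunits), 1 fell with vehicle, the light chain *Klc4*, and 8 fell and 1 rose with NSC. Of all genes, 11% fell with vehicle, and 16.5% fell and 18.2% rose with NSC. *Dctn1*, the large dynactin subunit, fell with NSC (log2 fold change -0.89, adjusted p = 0.0027), as did the dynein heavy chain *Dync1h1* (-0.79, adjusted p = 0.00722). *Trak2*, an adaptor that links mitochondria to kinesin, rose with NSC (0.66, adjusted p = 0.038). Without NSC replicate 1, 6 of these partners fell and 1 rose with NSC, beside 15.9% and 17.8% of all genes.

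Markers of other liver cells moved as well. For the counts that follow, 12.7% of all genes rose and 11% fell with vehicle, and 18.2% rose and 16.5% fell with NSC. Stellate and fibroblast markers rose with vehicle in 5 of 6 cases and passed in 0 of 6 with NSC. Their summed level was 44.9 to 47.1 CPM at baseline, 96.0 to 173 CPM with vehicle and 89.8, 37.0 and 42.0 CPM with NSC. Cholangiocyte markers rose in 4 of 5 cases with vehicle and 3 of 5 with NSC, from 37.8 to 40.6 CPM at baseline to 76.0 to 114 and 79.0 to 121 CPM. Most of that sum was *Spp1*, at 31.2 to 36.3, 60.9 to 95.9 and 70.3 to 110 CPM, and *Epcam* rose in neither comparison. Between NSC and vehicle, 2 of 5, *Krt19* and *Krt7*, had all NSC libraries below all vehicle libraries (12.2% of all genes did), and none passed. Macrophage markers rose in 0 of 4 and 2 of 4 cases, at 135 to 201, 118 to 199 and 232 to 327 CPM. Neutrophil markers, of which *Ly6g* was not tested, rose in 1 and 3 of 3 cases, at 1.77 to 6.48, 7.60 to 15.0 and 10.6 to 16.6 CPM. Endothelial markers were at 157 to 165, 98.4 to 160.1 and 112 to 199.8 CPM, with *Kdr* lower after vehicle. Of the 5 erythroid markers *Alas2* fell in both comparisons and none rose. Without NSC replicate 1, the markers that rose with NSC were 2 of 5 for cholangiocytes, 2 of 4 for macrophages and 2 of 3 for neutrophils. In that fit 2 of 5 endothelial markers fell, and of all genes 17.8% rose and 15.9% fell with NSC. Between NSC and vehicle, 4 of 6 stellate and fibroblast and 2 of 5 cholangiocyte markers were then lower with NSC, and 1 of 4 macrophage markers was higher. Of all genes, 2.73% were lower and 3.73% higher there. Over all 9 libraries 0 of these markers passed between NSC and vehicle. The part of these cells in the kinesin results was not tested.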

How the data were processed

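RNA-Seq was performed on 9 whole-liver samples in 3 groups. The authors prepared TruSeq Stranded mRNA libraries, aligned reads with STAR 2.6.1 and assigned them to genes with featureCounts of Subread 1.5.1, and deposited, per gene and library, the unnormalized count and an FPKM value. The submitters' processing notes name hg38, although the deposited gene identifiers and coordinates are mouse. The deposited FPKM equal the count divided by gene length plus 1 base and by the library total (largest relative difference 4.96e-10), so depth is the count total.

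Groups were taken from the sample labels. The counts were tested with edgeR 4.0.16 in R 4.3.3 (TMM factors, filterByExpr, robust quasi-likelihood fit of 9 libraries with group as the only term, 3 contrasts, Benjamini-Hochberg adjustment). The standard error is the absolute log2 fold change divided by the square root of F. A call needed an adjusted p under 0.05 together with a log2 fold change above 1.5 in size. Alternatives were DESeq2 1.42.0, edgeR's exact test, other scalings and filters, a replicate block, the groups compared alone, leaving out each library, and a GC correction added after the data were seen. The procedure was tested on simulated data. CPM are TMM-normalized, from these counts. No replicate pair was a duplicate.

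The members and lists were chosen with earlier results of these data known. Named are all mitotic kinesins, other called kinesins, those with an unadjusted p under 0.05 between NSC and vehicle and the 3 transport kinesins with the highest mean FPKM, and others by range and count. Lists are described by counts and medians, without a test of their own. The deposited table holds 4 further rows with Kif names that are not protein coding, and those were left out. Promoter sequences are those of RefSeq (GRCm38.p6), matched by symbol. The result of 1 marker list is not reported here.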

Additional observations from a re-analysis of the deposited data

How the results depend on the processing

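The 13 mitotic kinesins were called higher than baseline under every alternative that tested them, with 5 tested at 10 counts in every library. That filter gave 6 called kinesins with vehicle and 7 with NSC (14 and 15 under edgeR's own filter), 10 and 16 by the adjusted p alone (18 and 25 under that filter), and a mitotic median of 4.88 with vehicle, on 23 kinesins tested. With NSC the count was 25 by the adjusted p alone against 15 called. The GC correction moved the transport median with NSC from -0.59 to -0.39. Between NSC and vehicle, leaving out each library in turn gave 0 to 2 called kinesins and 0 to 9 by the adjusted p alone, the higher values without NSC replicate 1, and the cause was not tested.

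Between NSC and vehicle, where no value was past the threshold over all libraries, 10 of 34 kinesins changed sign under at least 1 alternative, and among the 20 genes named by rule 5 values did. Over the fits without 1 library each, *Kif1b* ranged from -0.15 (without NSC replicate 1) to 0.24, and *Kif14* from -0.13, *Kif18b* from -0.11 and *Kifc5b* from -0.080 (each without NSC replicate 2) to 0.86, 0.86 and 0.80 (each without NSC replicate 1). With the GC correction *Kif5b* was at -0.16. Of 351 values of these 20 genes under alternatives, 342 with vehicle and 334 with NSC kept direction and side of the threshold. Library size as the only scaling put the median of all genes at 0.14 between NSC and vehicle.

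Fits with the replicate block called 14, 15 and 0 kinesins. Deviations of samples with the same number correlated at -0.05 to 0.13, and those of samples with different numbers at -0.115 to 0.066. With 3 libraries a group these values cannot tell whether pairs exist. No pairs are stated, so the numbers were not taken as pairs. With 3 libraries a group, an exact permutation test cannot go below 0.1.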

Other observations

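Among the kinesins too low to test, *Kif19a*, which trims the length of motile cilia, gave 2, 8 and 1 counts at baseline, 1, 9 and 5 with vehicle and 4, 13 and 13 with NSC. *Kif1a*, a neuronal vesicle motor, gave 3 to 9 counts in 8 libraries and 0 in NSC replicate 2. The rows with Kif names that are not protein coding (*Kif22-ps*, *Kif16bos*, *Kifc5c-ps* and *Kif4-ps*) had at most 1 count in any library.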
